A study of Homo sapiens with 6 samples.

Results

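Activin, growth differentiation factor (GDF) and bone morphogenetic protein (BMP) genes were examined in HCT116, an established human colorectal carcinoma cell line. The 10 genes are the ligands INHBE, INHBA, INHBB, GDF15, GDF11 and BMP4, the antagonists FST and BAMBI, and the receptors ACVR2A and ACVR1B, out of 17269 genes in the deposited table. They were matched by gene symbol and chosen by family membership together with the counts of the same comparison that is described here. Their levels and fold changes are therefore given as a description, with no p-value for a member and nothing read from their calls.

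Poly(A) RNA was sequenced from 3 libraries of HCT116 cells carrying a control hairpin (shCtrl, labelled wild type) and 3 libraries of HCT116 cells with a short hairpin RNA against PRSS22 (shPRSS22). All cells were grown in RPMI1640 with 10% fetal bovine serum. Which sequence the hairpin targets, how long the cells carried it and whether they are a clone or a pool are not given in the sources used here. Nor do the labels say that replicates were separate cultures, so p-values measure only the spread between these libraries, which may be technical. The series set out to profile gene expression after depletion of PRSS22, which encodes a trypsin-like serine protease.

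Activins, GDFs and BMPs are secreted as precursors that furin-like proprotein convertases cut, and the mature dimers bind a type II receptor kinase, which switches on a type I receptor kinase. Activin receptors pass the signal to SMAD2 and SMAD3, and BMP receptors to SMAD1, SMAD5 and SMAD9; both groups partner with SMAD4 in the nucleus. Follistatin traps activins outside the cell, BAMBI is a receptor-like protein without a kinase that blunts signalling, and SMAD6 and SMAD7 are inhibitors induced as feedback. Activin and related signals restrain the growth of normal colon epithelium, and BMP4 takes part in the maturation of its cells.

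The libraries held 14920523 to 15466647 estimated counts each. Levels are given as CPM, counts per 1000000 of the library total over the 13104 genes tested, scaled by TMM, edgeR's correction for library composition. PRSS22 stood at 10.1, 9.38 and 10.1 CPM in shCtrl and at 3.09, 3.16 and 2.61 CPM in shPRSS22, a log2 fold change of -1.74 (SE 0.135, edgeR quasi-likelihood test, adjusted p = 4.78e-12). Of 10 colorectal epithelial markers 7 had at least 0.5 CPM in all 6 libraries, namely EPCAM, CDH1, KRT8, KRT18, KRT19, KRT20 and CDX2, while LGR5 had at most 2 counts. The summed level of the list was 4110.0 to 4300.0 CPM in shCtrl and 4030.0 to 4260.0 in shPRSS22. It was mostly that of KRT8, KRT18 and KRT19. KRT20 had 13, 15 and 12 counts in shCtrl and 53, 23 and 24 in shPRSS22. CEACAM5 had 1, 2 and 3 against 22, 5 and 4. CDH1 counts were also higher in every shPRSS22 library, and counts of the other markers on the list overlapped between the groups. Single genes carried the other lists: differentiated intestinal markers, CA2 alone at that limit, summed to 35.7 to 38.1 CPM in shCtrl and 44.3 to 46.4 in shPRSS22, and leukocyte markers, CD68 alone, to 14.4 to 15.8 and 16.2 to 19.3. Fibroblast (24.6 to 32.2 and 28.7 to 35.1) and endothelial sums (1.06 to 2.18 and 1.68 to 2.28) overlapped. shPRSS22 replicate 1 stood apart in genes of differentiated gut cells: FABP1 had 13 counts and SLC26A3 16 counts there and 0 in the other 5 libraries. The part of this in the results below was not tested, and the family genes are also given without that library.

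In shPRSS22 the activin beta subunit genes INHBE and INHBA stood 2.96 and 3.20 times as high as in shCtrl and the stress-induced ligand GDF15 1.56 times as high. The ligand BMP4 and the type I activin receptor ACVR1B were lower, at 0.771 and 0.846 of their shCtrl levels. Follistatin (FST), INHBB, BAMBI and ACVR2A lay higher by smaller or less precise amounts, and GDF11 overlapped between the groups. In these bulk libraries, a different share of cells with a transcript and a different amount per cell cannot be told apart. At an adjusted p under 0.05 over all genes, 3 of the 10 genes were called higher (INHBE, INHBA and GDF15) and 2 lower (BMP4 and ACVR1B), where 19.9% of all 13104 tested genes were called higher and 19.3% lower. The 3 shPRSS22 libraries lay above all 3 shCtrl libraries for 7 of the genes and below them for 2, where 24.2% and 24.3% of all tested genes did so. Since the genes were picked with this comparison in view, nothing is read from these counts. The median log2 fold change was 0.36 over the 10 genes and -0.01 over all genes tested.

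**Figure D1:**
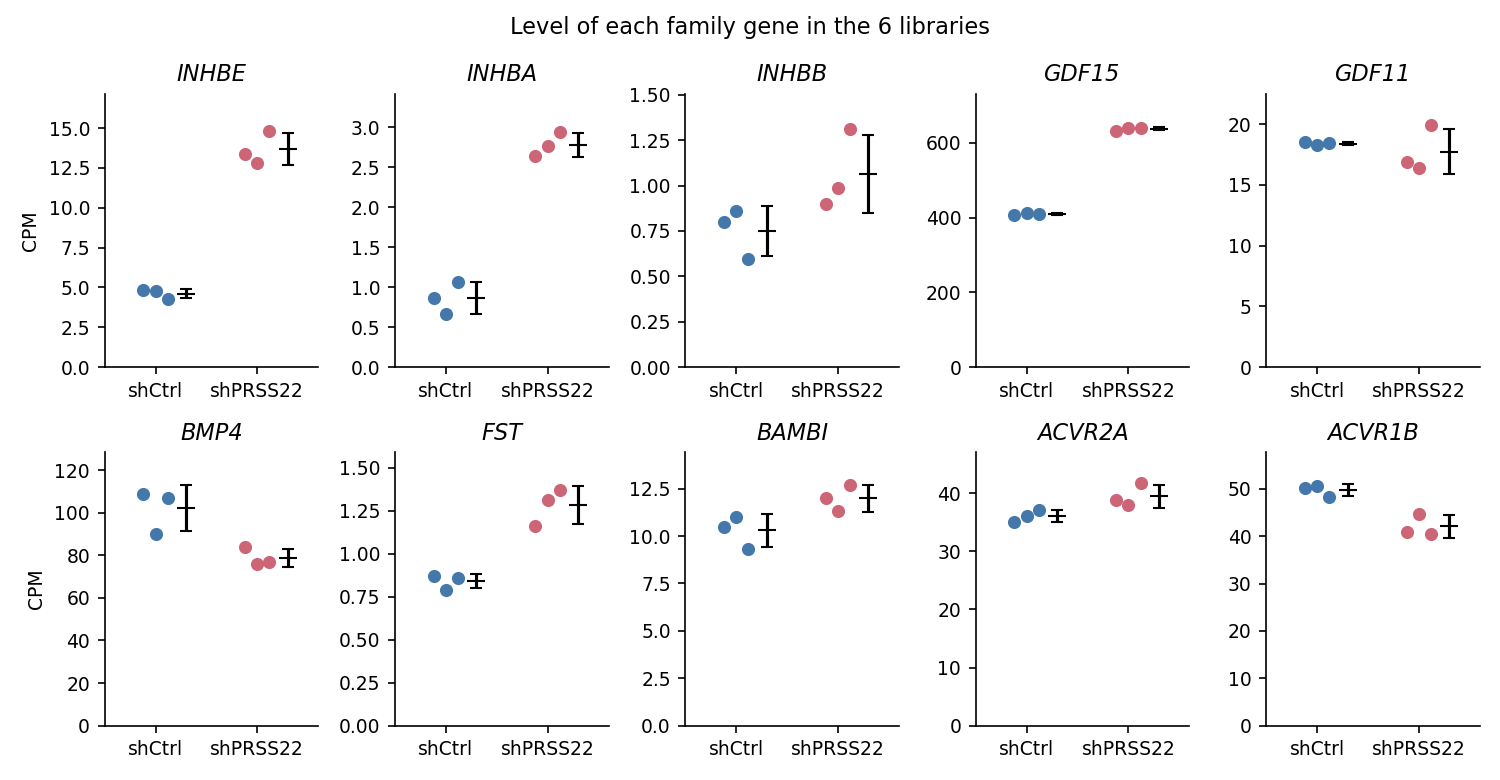
CPM of each of the 10 genes (vertical axes from 0, a separate scale per gene) in the 3 shCtrl libraries (blue) and the 3 shPRSS22 libraries (red), left to right in replicate order, with mean and SD in black. INHBE, INHBA and GDF15 separate most clearly upwards, BMP4 and ACVR1B lie lower, and the groups overlap for GDF11 alone.

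The promoters of INHBA, GDF15, BMP4 and ACVR1B, the genes called higher or lower that have a table entry, are printed so that their letters can be set beside the direction of each gene, 150 bases up to the base before the RefSeq start, 5′ to 3′ on the gene's strand, in build GRCh38.p14. The calls served only to choose which promoters to print. Capitals mark matches to the motifs searched. INHBA is at chr7:41703091-41703240 on the minus strand, GDF15 at chr19:18386008-18386157 on the plus strand, BMP4 at chr14:53955051-53955200 on the minus strand and ACVR1B at chr12:51951549-51951698 on the plus strand. BMP4 has 3 RefSeq starts in the table and ACVR1B has 2, of which 1 each is printed. INHBE is not among the 9 of 10 genes with an entry.
INHBA: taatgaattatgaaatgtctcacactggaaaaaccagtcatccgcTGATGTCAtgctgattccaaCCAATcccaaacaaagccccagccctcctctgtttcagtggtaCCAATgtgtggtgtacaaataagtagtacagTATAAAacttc
GDF15: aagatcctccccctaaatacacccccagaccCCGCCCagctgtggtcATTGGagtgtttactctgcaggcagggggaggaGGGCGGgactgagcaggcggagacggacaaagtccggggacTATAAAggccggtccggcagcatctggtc
BMP4: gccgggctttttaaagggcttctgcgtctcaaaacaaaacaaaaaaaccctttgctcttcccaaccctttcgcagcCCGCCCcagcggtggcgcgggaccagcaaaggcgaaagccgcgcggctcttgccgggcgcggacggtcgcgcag
ACVR1B: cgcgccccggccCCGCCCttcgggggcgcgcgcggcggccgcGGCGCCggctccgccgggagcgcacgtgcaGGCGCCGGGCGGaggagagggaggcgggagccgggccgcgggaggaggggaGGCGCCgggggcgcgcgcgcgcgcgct

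The motifs were searched on both strands of the 250 bases before each start, in 35116 windows of the RefSeq table. The TATA box letters TATAAA were in the windows of INHBA, GDF15 and GDF11, 3 of 9 genes, and in 10.7% of all windows; they began 11, 29 and 33 bases before the start. CCAAT was in INHBA, GDF15, GDF11, FST and BAMBI and in 32.0% of all windows, and the GC box GGGCGG in 7 of 9 genes, all but INHBA and ACVR2A, and in 42.6% of windows. TGATGTCA, a variant of the cyclic AMP response element, was in INHBA alone, 105 bases before the start, and in 2.37% of all windows, while the full element TGACGTCA (1.65% of windows) was in none of the 9. The C/EBP-ATF element TGATGNAA, which ATF4 and its partners bind in stress genes, was in none of the 9 and in 3.14% of all windows. The AP-1 element TGANTCA was in FST alone (6.57% of windows) and the antioxidant response element core TGACNNNGC in GDF11 alone (10.9%). GGCGCC, a GC-rich element of BMP-responsive genes, was in ACVR1B, BAMBI, BMP4 and INHBB and in 16.4% of windows. Matches of different motifs did not overlap in the printed stretches. In the printed 150 bases the G and C content was 41.3% for INHBA, 62.0% for GDF15, 62.7% for BMP4 and 89.3% for ACVR1B.

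INHBE encodes the beta E subunit that forms activin E, a factor made mainly by the liver. It had 72, 72 and 65 counts in shCtrl and 209, 195 and 226 in shPRSS22, or 4.81, 4.75 and 4.295 against 13.4, 12.8 and 14.8 CPM. Every knockdown library held more than 2 times the level of every control library. The means were 4.62 ± 0.281 and 13.7 ± 0.991 CPM (SD, n = 3), a log2 fold change of 1.56 (SE 0.114). Only 18 of the 13104 tested genes had a higher fold change.

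In the GENCODE 29 annotation of GRCh38, INHBE (Entrez 83729) occupies chr12:57452323-57459280, plus strand, in 2 exons. It sits between INHBC and GLI1, both on the same strand. INHBC, the beta C subunit gene, ends 1495 bases before INHBE and had 21, 17 and 11 counts in shCtrl and 13, 9 and 14 in shPRSS22. GLI1, a transcription factor of the Hedgehog pathway, begins 855 bases after it and had a log2 fold change of 0.17 (SE 0.113; edgeR quasi-likelihood test, adjusted p = 0.233). Neither neighbour passed the threshold (INHBC -0.47, edgeR quasi-likelihood test, adjusted p = 0.282). The few INHBC counts leave the size of any change poorly fixed. GLI1 had 120, 111 and 114 counts in shCtrl and 127, 142 and 127 in shPRSS22. These values do not settle whether the neighbours changed with INHBE, and only the adjoining genes were examined as neighbours. Of 7 hepatocyte markers listed because the liver is the main source of activin E, 5 were in the table: ALB had at most 3 counts and APOA1 and CYP3A4 at most 1 in any library. SERPINA1 had 1307, 1283 and 1307 counts in shCtrl and 906, 964 and 945 in shPRSS22, and TF 159 to 192 counts over all libraries. The summed level of the list, 97.4 to 99.0 CPM in shCtrl and 69.4 to 73.2 in shPRSS22, was thus mostly that of SERPINA1.

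INHBA encodes the beta A subunit of activin A, the best-studied activin. Its counts were 13, 10 and 16 in shCtrl and 41, 42 and 45 in shPRSS22, or 0.868, 0.660 and 1.06 against 2.64, 2.76 and 2.94 CPM. The groups were far apart although the counts were few. The log2 fold change was 1.68 (SE 0.252), and counting alone gives a coefficient of variation of 27.7% at the shCtrl level. Leaving out any 1 library kept the value between 1.52 and 1.86. On the log2(TPM + 1) scale, where TPM is the deposited level per transcript length, it was 0.53, since the added 1 exceeds every INHBA value, 0.18 to 0.83 TPM. INHBA (Entrez 3624) occupies chr7:41667168-41705834, minus strand, and the antisense gene INHBA-AS1 overlaps it. The library protocol describes no strand marking, so reads of any shared exon may not be told apart. Whether exons overlap was not examined, and INHBA-AS1 was not analysed here.

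INHBB, the beta B subunit gene of activin B, had the lowest level per transcript length of the 10 genes in shPRSS22. It had 12, 13 and 9 counts in shCtrl and 14, 15 and 20 in shPRSS22, or 0.801, 0.858 and 0.595 against 0.901, 0.986 and 1.31 CPM. The groups did not overlap, but the lowest knockdown library lay close to the highest control library. The log2 fold change of 0.50 had an SE of 0.330, and it was 0.33 without shPRSS22 replicate 3 and 0.36 without shCtrl replicate 3. With so few counts the size of the difference was poorly fixed.

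GDF15 encodes a distant family member that many cells secrete under stress and that acts on the brain through the receptor GFRAL. GFRAL was listed with the receptors but is absent from the deposited genes. GDF15 was by far the most abundant of the 10 genes and the most precisely measured. Its level was 406, 412 and 411 CPM in shCtrl and 633, 641 and 639 CPM in shPRSS22, from 6078 to 6242 and 9759 to 9843 counts. The 2 groups were each within a few percent of their means and well apart. The means of 409.7 ± 3.39 and 638.0 ± 4.14 CPM (SD, n = 3) gave a log2 fold change of 0.64 (SE 0.0324), which stayed between 0.63 and 0.64 in every setting tried. GDF15 (Entrez 9518) occupies chr19:18374731-18389176, plus strand. PGPEP1, a peptidase gene on the same strand ending 4781 bases before this GENCODE interval, also rose, by 0.28 (SE 0.0466, edgeR adjusted p = 1.07e-05). The RefSeq start of the printed GDF15 promoter, at 18386158, lies inside the interval and thus further from PGPEP1.

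GDF11, a close relative of myostatin, did not separate the groups. GDF11 had 277, 277 and 278 counts in shCtrl and 263, 250 and 304 in shPRSS22, or 18.5, 18.3 and 18.4 against 16.9, 16.4 and 19.9 CPM. Replicates 1 and 2 of the knockdown lay below the controls and replicate 3 above them. The log2 fold change was -0.05 (SE 0.0804), and its sign turned without shPRSS22 replicate 2 (0.0033) and on the log2(TPM + 1) scale (0.0988). The GDF11 interval overlaps that of SARNP, an RNA export factor gene on the opposite strand, which rose by 0.21 (SE 0.0631, edgeR adjusted p = 0.00948). Whether their exons overlap was not examined. No strand marking is described, so reads of any shared exon may not be told apart. The counts of both genes were whole numbers in all 6 libraries.

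BMP4 was the second most abundant of the 10 genes and was lower in shPRSS22. Its level was 109, 89.8 and 107 CPM in shCtrl and 83.7, 76.0 and 76.7 CPM in shPRSS22. All knockdown libraries lay below all controls, and shCtrl replicate 2 was the control nearest to them. The means were 102.1 ± 10.7 and 78.8 ± 4.25 CPM (SD, n = 3), a log2 fold change of -0.37 (SE 0.0728). Its controls had a coefficient of variation of 10.5%, where counting alone gives 2.55%, and the fold change ran from -0.32 without shCtrl replicate 1 to -0.46 without shCtrl replicate 2. BMP4 (Entrez 652) occupies chr14:53949736-53958761, minus strand.

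The antagonists FST and BAMBI were both higher in all 3 knockdown libraries than in any control. FST, which encodes follistatin, had 13, 12 and 13 counts in shCtrl and 18, 20 and 21 in shPRSS22, or 0.868, 0.792 and 0.859 against 1.16, 1.31 and 1.37 CPM. Its log2 fold change of 0.60 carried an SE of 0.299, and counting alone gives a coefficient of variation of 28.1% at the shCtrl level. BAMBI stood at 10.5, 11.0 and 9.32 CPM in shCtrl and 11.97, 11.3 and 12.7 CPM in shPRSS22, a log2 fold change of 0.22 (SE 0.0993). The highest control and the lowest knockdown library of BAMBI were close together.

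The receptors moved little and in opposite directions. ACVR1B, the type I receptor of activins also known as ALK4, stood at 50.3, 50.6 and 48.3 CPM in shCtrl and 41.0, 44.8 and 40.4 CPM in shPRSS22, a log2 fold change of -0.24 (SE 0.0535). ACVR2A, a type II receptor, stood at 35.0, 36.1 and 37.1 CPM in shCtrl and 38.9, 37.9 and 41.7 CPM in shPRSS22, a log2 fold change of 0.13 (SE 0.0569). Neither gene overlapped between the groups, though the margin for ACVR2A was under 1 CPM. ACVR2A was the only gene of the 10 whose counts carried decimals, in all 6 libraries, so part of its reads was divided between features. It overlaps ORC4, an origin recognition gene on the opposite strand, whose log2 fold change was -0.02 (edgeR adjusted p = 0.734).

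Leaving out shPRSS22 replicate 1, the library with the gut transcripts, gave log2 fold changes of 1.58 for INHBE, 1.72 for INHBA, 0.64 for GDF15, -0.42 for BMP4 and -0.22 for ACVR1B. The other values were 0.60 for INHBB, 0.67 for FST, 0.22 for BAMBI, 0.14 for ACVR2A and -0.02 for GDF11. No direction differed from that with all 6 libraries. The authors' deposited comparison of shPRSS22 with shCtrl names no library as left out. It gives 1.57 for INHBE, 1.69 for INHBA, 0.64 for GDF15, -0.37 for BMP4 and -0.24 for ACVR1B.

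**Figure D2:**
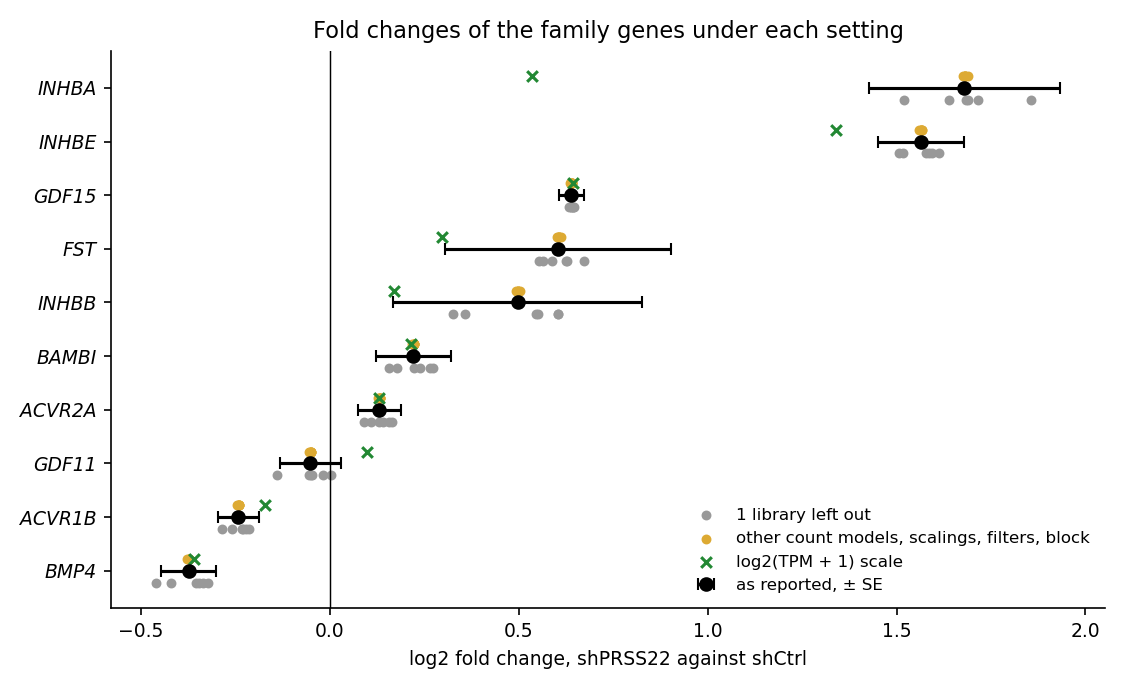
Log2 fold change of shPRSS22 against shCtrl (horizontal axis) for the 10 genes, with all 6 libraries and its SE (black), with 1 library left out (grey), under other count models, scalings, filters or a replicate block (yellow) and on the log2(TPM + 1) scale (green crosses). INHBA and INHBE lie between 1.51 and 1.86 in all settings on counts, GDF15 hardly moves, and the GDF11 values lie on both sides of 0.

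Compared per transcript length, GDF15 outweighed the other genes in both groups. It reached 733 ± 5.04 TPM in shCtrl and 1146 ± 20.8 TPM in shPRSS22 (SD, n = 3), followed by BMP4 at 104.3 ± 11.96 and 80.8 ± 5.52 TPM. ACVR1B came next at 19.3 ± 0.638 and 17.0 ± 0.268 TPM. BAMBI, at 11.9 ± 0.948 and 13.9 ± 1.08 TPM, and ACVR2A, at 11.7 ± 0.408 and 12.9 ± 0.835 TPM, followed with overlapping ranges in both groups. INHBE and GDF11 overlapped in shCtrl, at 3.20 to 3.56 and 3.45 to 3.62 TPM, but not in shPRSS22, where INHBE stood at 9.31 to 11.11 TPM and GDF11 at 3.02 to 5.28 TPM. FST, at 0.63 to 1.08 TPM over the 6 libraries, lay above INHBA and INHBB in both groups. FST was followed by the remaining beta subunits, whose order differed: INHBB (0.33 to 0.47 TPM) lay above INHBA (0.18 to 0.28 TPM) in shCtrl and below it in shPRSS22 (0.51 to 0.73 against 0.75 to 0.83 TPM).

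**Figure D3:**
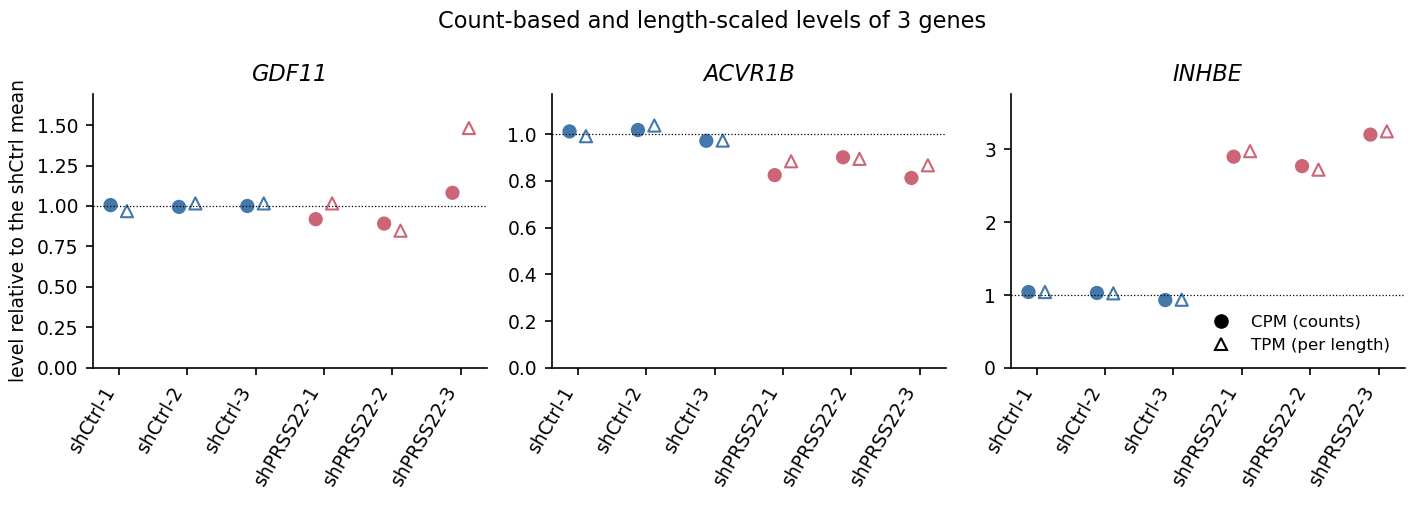
Level of GDF11, ACVR1B and INHBE in each library relative to the gene's shCtrl mean (vertical axes from 0), from CPM (filled circles) and from TPM (open triangles), shCtrl in blue and shPRSS22 in red. The measures run together for INHBE, and for GDF11 they part in shPRSS22 replicate 3, which has 19.9 CPM and 5.28 TPM.

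The rest of the pathway was read from 8 lists of ligands, receptors, antagonists, SMAD proteins, convertases, target genes and inducers. Of their 121 distinct genes other than the 10, 85 were tested, 20 rose and 12 fell. That is 37.6% called, where 39.1% of all tested genes were called, and the median log2 fold change was 0.02. Over all tested genes 19.9% were called higher and 19.3% lower, and each list's counts stand beside these shares. The lists as a whole thus held calls at about the rate of all genes.

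**Figure D4:**
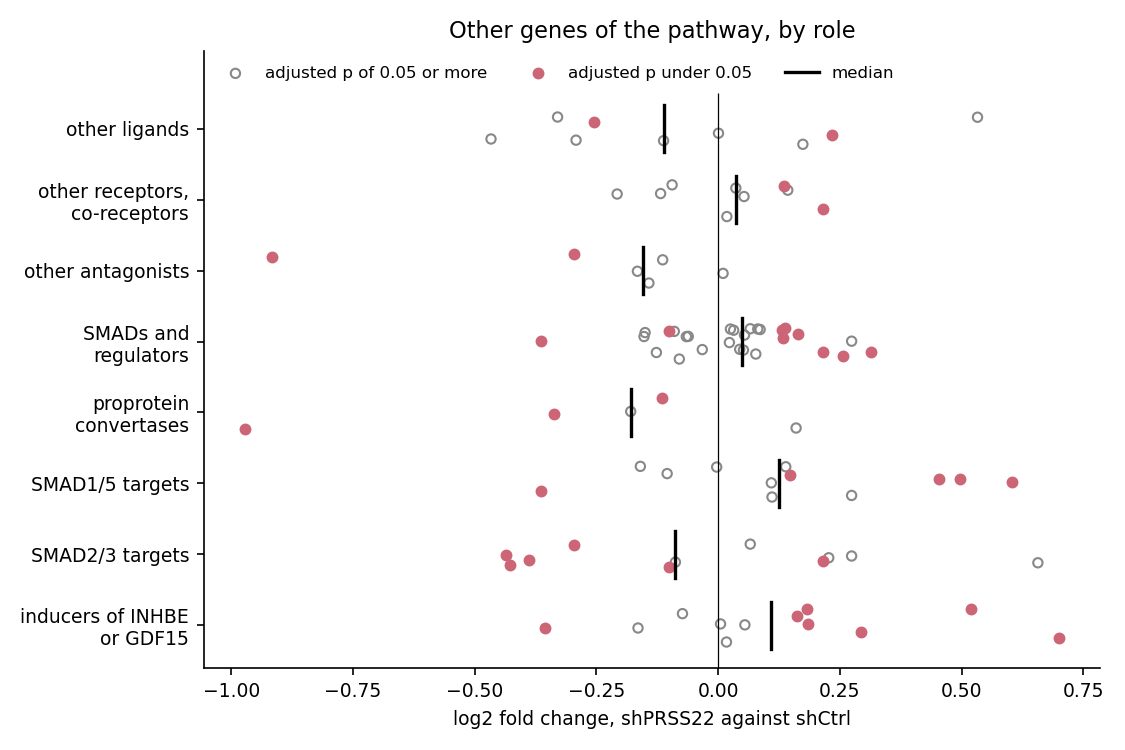
Log2 fold change of shPRSS22 against shCtrl (horizontal axis) of each tested gene in the 8 lists (rows), filled where edgeR's adjusted p was under 0.05 and open otherwise, with the median of each list as a bar and vertical scatter only to separate points. NBL1 (-0.92) and PCSK4 (-0.97) lie furthest down, ATF3 (0.70) furthest up, and most receptor and SMAD genes lie near 0.

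Among other ligands of the family 9 of 24 were tested, 1 rose and 1 fell (median -0.11; all genes 19.9% higher, 19.3% lower). BMP8A rose by 0.23, from 22.2 ± 1.85 to 26.1 ± 1.97 CPM (SE 0.0730, edgeR adjusted p = 0.0107) and BMP8B fell from 40.1 ± 2.23 to 33.6 ± 2.47 CPM (-0.26, SE 0.0610, adjusted p = 0.00118). Both carried decimals in every library, so reads were divided between these near-identical genes, and their opposite calls are uncertain. BMP8A also lost its call with DESeq2 (adjusted p = 0.0776), on the log2(TPM + 1) scale (0.141), without shCtrl replicate 2 (0.0856) and without shPRSS22 replicate 3 (0.0776). BMP7 (0.00, SE 0.0796) and BMP6 (-0.11, SE 0.101) did not pass, and NODAL, which activates the activin receptors in embryos, had 2 to 7 counts per library.

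Receptors and co-receptors showed 2 genes that rose and 0 that fell among 9 tested (median 0.04; all genes 19.9% higher, 19.3% lower). RGMB, a BMP co-receptor, rose from 78.2 ± 0.580 to 90.8 ± 3.21 CPM (0.22, SE 0.0418, edgeR adjusted p = 1.13e-04). BMPR2, the type II BMP receptor, rose by 0.14 (SE 0.0452, adjusted p = 0.0163), a call lost with DESeq2 (0.0742), on the log2(TPM + 1) scale (0.160), without shCtrl replicate 1 (0.0741) and without shPRSS22 replicate 3 (0.184). The type I receptors ACVR1 (0.05), ACVR1C (0.02), ACVRL1 (-0.12) and BMPR1A (0.04), the type II receptor ACVR2B (-0.09) and the co-receptors RGMA (-0.21) and TGFBR3 (0.14) did not pass. ACVR2B and ACVR2A, the alternative type II partners of activins, thus had values of opposite sign, and both were small.

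Extracellular antagonists other than FST included 2 genes that fell and 0 that rose among 6 tested (median -0.15; all genes 19.9% higher, 19.3% lower). NBL1, also called DAN, a secreted BMP antagonist, stood at 56.4, 60.4 and 60.9 CPM in shCtrl and 30.8, 32.9 and 30.6 CPM in shPRSS22. Every knockdown library lay far below every control, with a log2 fold change of -0.92 (SE 0.0544, edgeR adjusted p = 6.75e-15). The NBL1 counts carried decimals in every library, so part of its reads was divided between features. FSTL3, a follistatin-like trap for activins, fell from 49.4 ± 4.35 to 40.2 ± 1.66 CPM (-0.30, SE 0.0586, adjusted p = 1.44e-04). Chordin, CHRD (-0.17), noggin, NOG (-0.14), FSTL1 (-0.11) and TWSG1 (0.01) did not pass.

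SMAD proteins and their regulators rose in 7 of 28 tested genes and fell in 2 (median 0.05; all genes 19.9% higher, 19.3% lower). SMAD6, the inhibitor of BMP signalling, fell from 13.7 ± 0.397 to 10.7 ± 0.555 CPM (-0.36, SE 0.0922, edgeR adjusted p = 0.00203). SMAD3, which carries activin signals, rose by 0.13 (SE 0.0391, adjusted p = 0.00730), a call lost on the log2(TPM + 1) scale (0.0649), without shCtrl replicate 2 (0.05) and without shPRSS22 replicate 1 (0.0558). The values of SMAD1 (-0.15), SMAD2 (0.03), SMAD4 (0.05), SMAD5 (0.09), SMAD7 (0.27) and SMAD9 (-0.15) did not pass. SMAD5 passed in 4 of 13 other settings (adjusted p = 0.0298 to 0.0491, the replicate block and DESeq2 size factors among them) and SMAD1 in 2 (0.0462 with the block, 0.0347 without shPRSS22 replicate 2). SMAD7 stood at 7.48, 7.33 and 7.86 CPM in shCtrl and 8.17, 9.66 and 9.60 CPM in shPRSS22, with an adjusted p of 0.0525 (edgeR) that came to 0.0249 without shPRSS22 replicate 1, 0.0433 with the replicate block and 0.0131 on the log2(TPM + 1) scale. USP15, a deubiquitinase of receptors and SMADs (0.31), and ZFYVE9, the SMAD anchor SARA (0.26), rose most. The repressor TGIF1 fell (-0.10, adjusted p = 0.0375), a call lost under 6 of 13 other settings, and USP15 lost its call on the log2(TPM + 1) scale alone (0.234).

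Of the 5 proprotein convertases, which cut the ligand precursors, 3 fell and 0 rose (median -0.18; all genes 19.9% higher, 19.3% lower). FURIN stood at 102, 101 and 102 CPM in shCtrl and 91.1, 96.8 and 94.2 CPM in shPRSS22 (-0.12, SE 0.0395, edgeR adjusted p = 0.0191). It was named after its value was seen. PCSK6 fell from 10.1 ± 0.791 to 7.99 ± 0.755 CPM (-0.34, adjusted p = 0.0149) and PCSK4 from 2.01 ± 0.333 to 1.02 ± 0.594 CPM (-0.97, adjusted p = 0.00968). Each call was lost in some settings, with adjusted p up to 0.106 for FURIN, 0.106 for PCSK6 and 0.0699 for PCSK4, and PCSK4, at 0.708, 1.71 and 0.653 CPM in shPRSS22, overlapped the controls and came to -1.55 without shPRSS22 replicate 2.

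Targets of SMAD1 and SMAD5, the readout of BMP signalling, rose in 4 of 12 tested genes and fell in 1 (median 0.12; all genes 19.9% higher, 19.3% lower). HEY1, a transcriptional repressor, rose from 3.53 ± 0.314 to 4.99 ± 0.859 CPM (0.50, SE 0.162, edgeR adjusted p = 0.0148), GATA2 by 0.45 (SE 0.1203, adjusted p = 0.00308) and ID3 by 0.15 (adjusted p = 0.0285); SMAD6 was the member that fell. ID4, at 1.33 ± 0.245 and 2.02 ± 0.109 CPM, was called at 0.60 with an adjusted p of 0.0496, and the call was lost in 10 of 13 other settings, among them DESeq2 (0.227). HEY1 lost its call with DESeq2 (0.102), without shCtrl replicate 1 (0.0701) and without shPRSS22 replicate 3 (0.122), and ID3 lost its call in 5 settings, with an adjusted p of 0.283 without shPRSS22 replicate 1. ID1 (-0.16) and ID2 (-0.0030), inhibitors of basic helix-loop-helix factors, did not pass.

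Targets of SMAD2 and SMAD3 fell in 5 of 11 tested genes and rose in 1 (median -0.09; all genes 19.9% higher, 19.3% lower). PDGFB, a growth factor gene, stood at 70.6, 70.6 and 72.4 CPM in shCtrl and 52.6, 52.1 and 53.3 CPM in shPRSS22 (-0.44, SE 0.0454, edgeR adjusted p = 3.15e-09). CDKN2B, the cell cycle inhibitor p15, fell by a similar amount (-0.43, SE 0.0538, adjusted p = 1.24e-07), and FSTL3 and TGIF1 stand in this list too. SKIL, a SMAD corepressor, was the member that rose (0.21, SE 0.0446, adjusted p = 2.61e-04). PDGFB, CDKN2B and SKIL kept their calls in all 13 other settings.

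Transcription factors known to induce INHBE or GDF15 rose in 6 of 12 tested genes and fell in 1 (median 0.11; all genes 19.9% higher, 19.3% lower). ATF3, a stress-induced factor, rose from 69.9 ± 1.74 to 113.6 ± 3.60 CPM (0.70, SE 0.0415, edgeR adjusted p = 6.35e-15) and DDIT3, also called CHOP, from 216.1 ± 6.35 to 310.0 ± 4.44 CPM (0.52, SE 0.0335, adjusted p = 5.39e-14). CEBPG, a partner of ATF4, rose by 0.29, and XBP1, CEBPB and NFE2L2 each rose by 0.16 to 0.18. EGR1, an early growth response factor, fell from 136.0 ± 2.23 to 106.3 ± 3.83 CPM (-0.36, adjusted p = 5.13e-09). ATF4 (0.05, adjusted p = 0.203) did not pass. These are transcript levels, and no protein was measured.

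The genes most like INHBE and GDF15 across the 6 libraries were ranked by Pearson's r of log2 CPM over 11155 other genes with a mean of at least 5 CPM. For INHBE they were FBXO28 (r = 0.9998), LRATD2 (0.9995), ULBP1 (0.9994), CNTNAP2 (0.9992) and GRAMD1B (0.999). For GDF15 they were STARD4 (0.9997), STC2 (0.9995), FSD1 (0.9993), GARS1 (0.9991) and CYP4F11 (0.999). The 6 points share the split into 3 control and 3 knockdown libraries, and 843 genes reached an r over 0.95 with INHBE and 859 with GDF15, so these ranks describe order within a large group of genes. The genes most like INHBE differ in size of change, from 0.20 for FBXO28 to 1.38 for GRAMD1B on the log2 scale, and all 10 lay higher in every knockdown library than in any control.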

How the data were processed

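RNA of 3 shCtrl and 3 shPRSS22 HCT116 libraries was compared. The submitters' processing notes name, without roles, Bowtie2 2.3.4.3, HISAT2 2.2.1, RSEM 1.3.1, R 4.3.1, DESeq2 1.4.5, FastQC 0.12.1 and build GRCh38.p13. The annotation used for counting is not given in the sources used here. The authors deposited estimated counts, per the file headers and their decimals. Per the file headers, the authors also deposited a TPM, an FPKM and a normalised read count signal for each library, means per group, and a log2 fold change with a p-value and q-value. FPKM, the signal and the deposited p-values support no result here. Estimated counts divide reads shared by similar genes.

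Counts were rounded, filtered with filterByExpr (minimum count 10), scaled by TMM and tested with edgeR 4.0.16 (robust quasi-likelihood F test, R 4.3.3). The test was run on simulated data whose changes were larger than most of those reported here, so that check does not cover small changes. P-values are two-sided and Benjamini-Hochberg adjusted over 13104 genes, with a threshold of 0.05; the SE is the fold change divided by the square root of F. With 3 libraries a group, depth of 14920523 to 15466647 counts limits genes near 1 CPM. All 10 family genes passed the filter; INHBB reached 10 counts in 2 shCtrl libraries. The 13 alternatives were DESeq2 1.42.0, limma 3.58.1 on log2(TPM + 1), other scalings and filters, a replicate block and leaving out each library.

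The family genes, lists and tests were chosen with earlier results of these data known. Named from the lists are the 2 largest rises and 2 largest falls past the threshold at a mean of at least 1 CPM, every tested receptor and SMAD gene, and 5 genes most like INHBE and GDF15 (at least 5 CPM, log2 of CPM plus 0.5); others were chosen after their values were seen. Gene positions come from GENCODE 29 (GRCh38), promoters from RefSeq (GRCh38.p14). Some genes counted in the lists are not reported here by name.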

Additional observations from a re-analysis of the deposited data

How the results depend on the processing

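Values were recomputed under 13 other settings. Genes called lower numbered 2523 with edgeR and 1605 with DESeq2; the cause was not tested. Genes called higher numbered 2603 and 1742. With the replicate number as a block, 2782 genes were called higher and 2747 lower, and 22 and 16 of the pathway list genes against 20 and 12. Deviations of same-numbered libraries had small positive correlations across genes (0.0194, 0.0329 and 0.0908), and those of other library pairs ran from -0.115 to 0.0839. shPRSS22 replicates 2 and 3 correlated best with the shCtrl library of their own number, and shPRSS22 replicate 1 with shCtrl replicate 2 (0.0839). These values do not settle whether the numbers are pairs. The reported fit did not take them as pairs. Pathway list genes called higher numbered 19 to 21 under the other edgeR scalings and filters, 14 with DESeq2, 15 on log2(TPM + 1) and 16 to 22 without 1 library, and those called lower 9 to 14 without 1 library. The 10 family genes were chosen with this comparison in view, so no p-value of theirs is given, only their sizes. On log2(TPM + 1) the fold changes were smaller for low genes: INHBE 1.34, INHBA 0.53, FST 0.30 and INHBB 0.17; ACVR1B was -0.17. A mean CPM of at least 1 left INHBB out. Of the 33 genes past the threshold among the named list genes and PRSS22, 21 passed it in every setting. Of the 13 not past it, 4 passed in some setting (SMAD1, SMAD5, SMAD7 and TGFBR3). The 9 to 21 counts of INHBB and FST limit what depth can show.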

Other observations

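GDF11 differed between the count and the length-scaled values. Its TPM was 3.45, 3.62 and 3.62 in shCtrl and 3.62, 3.02 and 5.28 in shPRSS22. Its counts were 277, 277 and 278 in shCtrl and 263, 250 and 304 in shPRSS22. shPRSS22 replicate 3 was the highest library in both, but in relative terms it exceeded the others by more in TPM than in counts. The count per TPM, which stands for the effective transcript length used in the deposited estimate, was 0.742 of the shCtrl mean in that library and 0.931 to 1.04 in the other 5. Among 10795 genes with at least 3 TPM in all libraries the ratio of the highest to the lowest such value had a median of 1.016. It was 1.4 for GDF11, and 39 genes (0.361%) varied at least as much. ACVR1B, the next of the 10 genes, had a ratio of 1.07, and INHBE, GDF15, BMP4, ACVR2A and BAMBI had 1.01 each. The cause was not tested.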
